A study of Mus musculus with 36 samples.

Results

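The matrix metalloproteinases (MMPs) Mmp2, Mmp7, Mmp9, Mmp14 and Mmp23, the tissue inhibitors of metalloproteinases Timp1, Timp2 and Timp3, and the related proteases Adamts1 and Adamts12 were examined in kidneys of 2 mouse models of polycystic kidney disease. They are 10 of the 20458 genes in the table of read counts, and were chosen by name. For each gene the RefSeq transcript with the highest mean count was used, which was the only one listed except for Timp1, which has 3. In the Pkd1 model, KO kidneys came from Pkd1f/f:HoxB7-Cre mice and WT kidneys from Pkd1f/f littermates without Cre. In the Pkd2 model they came from Pkd2f/f:HoxB7-Cre and Pkd2f/f mice. HoxB7-Cre acts in the collecting duct, whereas the RNA came from the kidney as a whole, so the samples also held the many cell types in which this Cre does not act. Every group of model, genotype and postnatal day (P1, P3 or P7) had 3 libraries, which gave 36 libraries in 12 groups. In bulk tissue, fewer cells of a type and less RNA per cell cannot be told apart.

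MMPs are zinc-dependent enzymes that cut collagens, basement membrane proteins and proteins at the cell surface. Most are made as inactive precursors, and TIMPs block the active enzymes by filling their catalytic site. Mmp14 sits in the cell membrane, where it activates Mmp2 with the help of Timp2, so these 3 genes form a unit of pericellular proteolysis. ADAMTS proteases carry thrombospondin repeats and cut proteoglycans and other matrix proteins, and Timp3 inhibits several of them. Cyst growth and fibrosis of the kidney both involve remodelling of the matrix around tubules.

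Of the 10 genes, 8 had enough reads to be tested in both models, which required 10 counts or more in 3 or more of a model's 18 libraries. At P7, Adamts12 fell and Mmp23 rose in Pkd1 KO kidneys, and Mmp23, Mmp14 and Timp2 rose in Pkd2 KO kidneys, by edgeR's quasi-likelihood test with an adjusted p under 0.05. The Mmp23 call in Pkd1 held in 1 of 6 fits that left out 1 library. The Pkd1 calls at P7 come from a comparison in which counts of Y-linked genes also split KO from WT. In WT kidneys, Timp3 and Adamts1 rose from P1 to P7 in both models. The Timp3 call in Pkd1 held in 4 of 9 fits that left out 1 library, and the Adamts1 call in Pkd2 in 5 of 9. Timp1 and Mmp7 could not be compared.

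The libraries held between 7179152 and 15850818 counts, with a median of 13143336. Kidney markers were present in every group, and the summed level of 5 proximal tubule markers (Lrp2, Cubn, Slc34a1, Slc5a2 and Slc22a6) was between 3461 and 4660 CPM (read counts scaled to the size of the library) in WT kidneys at P7. Several defining markers, among them Umod, Avpr2, Pecam1, Ptprc and Pdgfrb, had at most 3 counts in every library. The Pkd1 transcript did not pass the test in Pkd1 KO kidneys at any day, with log2 fold changes of -0.20, -0.07 and 0.10 at P1, P3 and P7. The Pkd2 transcript passed in Pkd2 KO kidneys at P7 only (-0.29, edgeR adjusted p = 0.0122). In the paper the loxP sites flank only some exons of each gene, whereas these counts cover whole transcripts of the whole kidney. The values therefore do not measure the deletion. Counts of Y-linked genes split the libraries into 18 with 3926 to 5041 counts and 18 with 0 to 5. At P7 all 3 Pkd1 KO libraries had Y-linked counts and all 3 Pkd1 WT libraries had none, so sex, which the labels do not give, and genotype cannot be told apart in that comparison. At P7 in the Pkd2 model, 3 of 3 KO and 2 of 3 WT libraries had them.

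Promoter windows were found for 8 of the 10 genes (all but Mmp2 and Mmp9), 10 windows in all, in the RefSeq table for GRCm38.p6, each with 250 bases before and 50 after an annotated start. The GC box was searched for as GGGCGG on both strands. The TATA box was searched for in the form TATAAA, and the AP-1 element in the form TGACTCA, likewise on both strands. Printed here is 1 match from the window of each gene that changed and had one, with the TATA box chosen for Adamts1, whose window also held GC boxes. The AP-1 match and 1 of the TATA matches of Mmp7, which was barely counted, stand beside them. Capitals mark the matched letters as read on the strand of the gene, and some matches overlap or adjoin another.
Mmp23, GC box, minus strand, chr4:155653254-155653283: cgagccgtccgCCGCCCatccccttcccac
Mmp14, GC box, plus strand, chr14:54431568-54431597: ggagggcattgGGGCGGgggcggaggagag
Timp2, GC box, minus strand, chr11:118355430-118355459: tggggagggctGGGCGGcgcggcgcgggag
Timp3, GC box, plus strand, chr10:86300386-86300415: ccgggccggctCCGCCCtgtcgccccgcgc
Adamts1, TATA box, minus strand, chr16:85803127-85803156: tcctatgtggcTATAAAggggcggccgggg
Mmp7, AP-1, plus strand, chr9:7692016-7692045: aagtgtgcaaaTGAGTCAcctatttccaca
Mmp7, TATA box, plus strand, chr9:7692053-7692082: ctgagaagccaTATAAAtttctccagcccc
A GC box was found in 6 of the 10 windows, those of Mmp14, Mmp23, Timp1, Timp2, Timp3 and Adamts1, and in 35.7% of all 32851 windows in the table. A TATA box was found in 2 windows, those of Adamts1 and Mmp7, and in 13.6% of all. The AP-1 letters were found in the Mmp7 window only, and in 5.2% of all. The window of Adamts12 held none of these letters. A match of letters is a description and not a binding site.

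**Figure D1:**
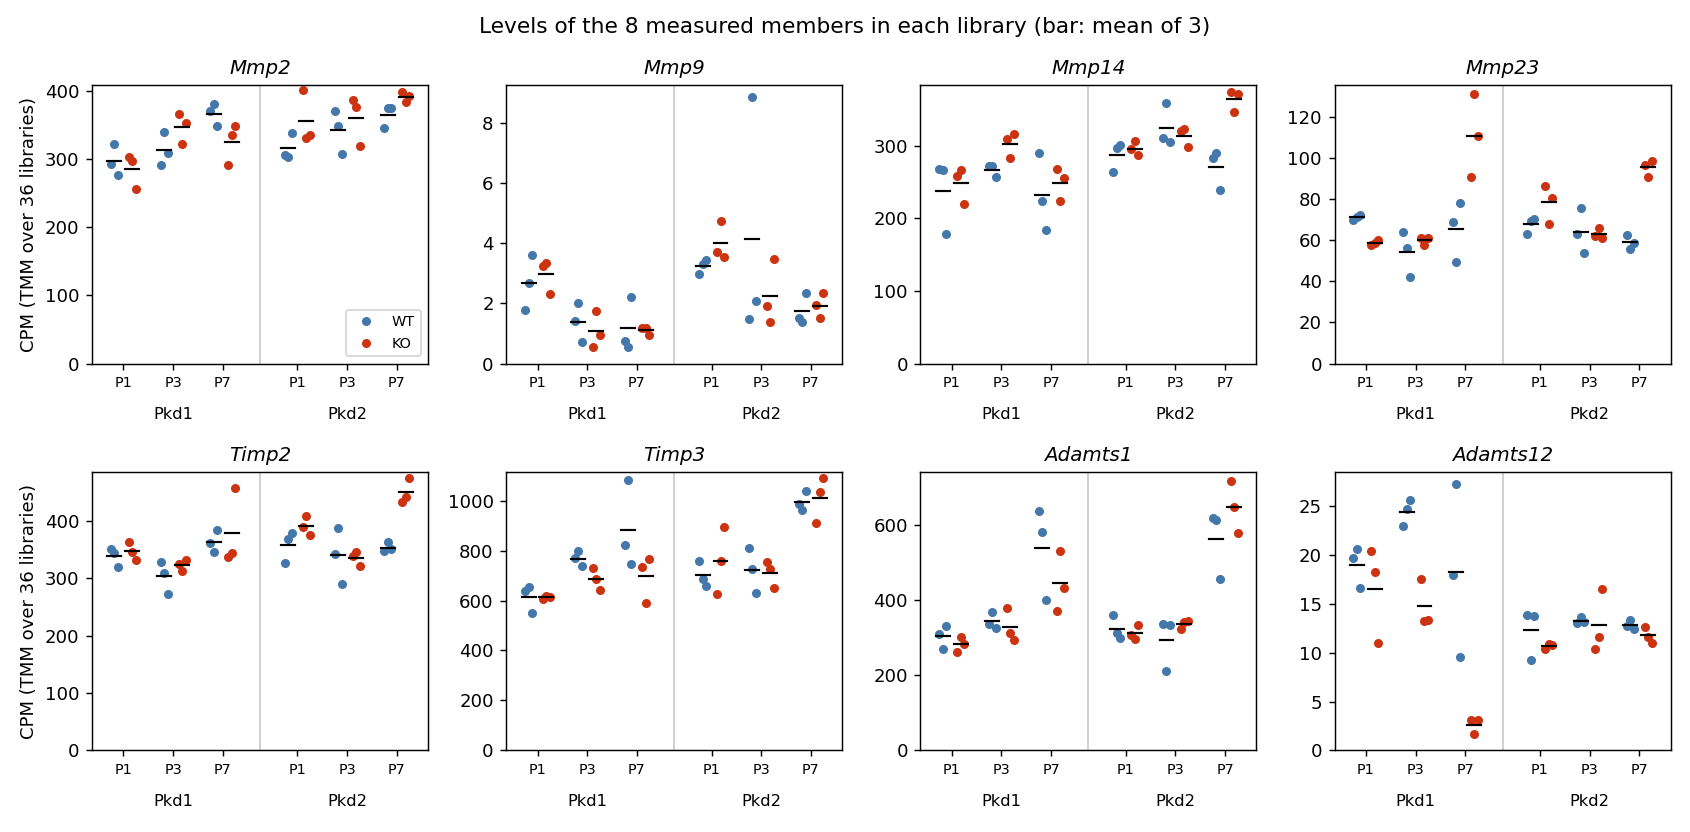
Level of the 8 tested genes in each of the 36 libraries, in CPM on a linear axis from 0, by model and day, with WT in blue, KO in red and a bar at the mean of the 3 libraries. Adamts12 lies between 1.64 and 3.14 CPM in the Pkd1 KO kidneys at P7 and between 9.23 and 27.3 CPM in the other 33 libraries.

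The scaling behind the CPM values used TMM factors computed over the 36 libraries together. To compare genes, CPM were divided by transcript length in kilobases. In Pkd1 WT kidneys at P1, Timp3 had the highest level per kilobase, 130.2 ± 12.3 (mean ± SD, n = 3 for this and each following value). Mmp2, Mmp14 and Timp2 followed with 96.7 ± 7.48, 91.5 ± 19.7 and 91.2 ± 4.64 CPM per kilobase, and their ranges overlapped. Adamts1 had 62.1 ± 6.42 and Mmp23 49.6 ± 0.787 CPM per kilobase, each without overlap with its neighbours. Adamts12 and Mmp9 lay far lower, at 2.21 ± 0.247 and 0.843 ± 0.288. Timp3 also had the highest mean in the 11 other groups, though its range overlapped that of Mmp14 in Pkd2 WT kidneys at P3. At P7 in WT kidneys the mean of Adamts1 stood above that of Timp2 in both models, at 110.5 ± 25.4 CPM per kilobase in Pkd1 and 115.2 ± 19.0 in Pkd2. Its range there overlapped those of Mmp2, Mmp14 and Timp2 in both models.

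Adamts12, which cuts cartilage oligomeric matrix protein among other substrates, had the largest change of the 8 tested genes (NM_175501; gene at 11064773 to 11349232 on the plus strand of chromosome 15, mm10). In Pkd1 kidneys at P7 the WT libraries had 17.95, 27.3 and 9.53 CPM and the KO libraries 3.08, 1.64 and 3.14 CPM. The groups did not overlap, and every KO library was lower than all other libraries of the series. The log2 fold change was -2.81 ± 0.43 (SE, edgeR adjusted p = 0.0104), a level in KO of 0.143 times that in WT. The KO counts behind these values were 39, 21 and 43. It remained called whichever of the 6 libraries was left out, with values from -3.11 to -2.39. With Y-linked counts as a term in the fit of all 18 Pkd1 libraries the value was -2.62 and was not called (edgeR adjusted p = 0.115), a fit in which 6 transcripts passed in all. In Pkd1 only the P1 WT group was mixed, with Y-linked counts in 2 of 3 libraries. The term rests on that group alone, so it cannot separate sex from genotype at P7. Outside the Pkd1 P7 libraries Adamts12 ranged from 9.23 to 25.7 CPM in the 15 libraries with Y-linked counts and from 10.3 to 20.6 CPM in the 15 without them, with medians of 13.3 and 13.1. These sets mix models, days and genotypes in unlike shares, so the values do not isolate Y-linked counts. The part of sex was not tested.

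At P3, when all 6 Pkd1 libraries had Y-linked counts, Adamts12 had 23.0, 24.8 and 25.7 CPM in WT and 17.6, 13.3 and 13.4 CPM in KO kidneys. Those groups did not overlap either. The log2 fold change was -0.73 ± 0.14 (SE) and did not pass edgeR's quasi-likelihood test (unadjusted p = 0.000735, adjusted p = 0.162), whereas edgeR's exact test and DESeq2 called it with adjusted p of 0.00790 and 0.00327. At P1 the Pkd1 groups overlapped, between 16.6 and 20.6 CPM in WT and between 10.98 and 20.4 CPM in KO. The shift in log2 fold change from P1 to P7 was -2.60 ± 0.46 (SE, edgeR adjusted p = 0.00451).

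In the Pkd2 model Adamts12 was not called at any day. At P7 its 3 WT libraries had 12.8, 13.3 and 12.4 CPM and its KO libraries 12.6, 11.6 and 11.03 CPM, with overlap (log2 fold change -0.12, SE 0.13, edgeR adjusted p = 0.575). Setting the models against each other at P7, the fold change in Pkd1 less that in Pkd2 was -2.66 ± 0.46 (SE), which did not pass edgeR's interaction test (unadjusted p = 8.89e-05, adjusted p = 0.105). It passed when Pkd1 P7 WT replicate 3 was left out (-2.96, edgeR adjusted p = 0.00331). With all libraries no transcript passed, while DESeq2 called 406 of 12343, Adamts12 among them.

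The transcript of Adamts12 is 8579 bases long, the longest of the 10. In Pkd1 at P7 the log2 fold change of transcripts fell with their length (Spearman's rho across 12445 transcripts -0.296, which are not independent replicates). Transcripts of at least 6000 bases had a median of -0.22 and those under 1500 bases a median of 0.25. In a fit that corrected each library for length and GC content, Adamts12 had -2.43 at P7 (edgeR adjusted p = 0.00857). In Pkd1 at P3 the log2 fold change also fell with length (rho -0.270) and rose with GC content (rho 0.460). Transcripts of at least 6000 bases had a median of -0.18 there, and the Adamts12 transcript has 46.8% GC. The quasi-likelihood test called none of the tested members at P3 with or without this correction.

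Mmp23 encodes a membrane-anchored MMP that lacks the hemopexin domain of most of the family (NM_011985; gene at 155650655 to 155654539 on the minus strand of chromosome 4). In Pkd2 kidneys at P7 the WT libraries had 62.5, 55.6 and 58.6 CPM and the KO libraries 96.6, 90.9 and 98.5 CPM. Every KO library was above every WT library. The log2 fold change was 0.70 ± 0.07 (SE, edgeR adjusted p = 0.00135), or 1.63-fold, and stayed called whichever library was left out (0.67 to 0.75). In Pkd1 kidneys at P7 the WT libraries had 69.0, 49.5 and 77.9 CPM and the KO libraries 90.5, 131.0 and 110.7 CPM. These groups did not overlap, with a wider spread than in Pkd2. The log2 fold change was 0.75 ± 0.20 (SE, edgeR adjusted p = 0.0411). Of 6 refits without 1 library this call held in 1, the one without Pkd1 P7 WT replicate 3, and was lost without each of the other 5 libraries, at values from 0.59 to 0.89. It was also lost when length and GC content were corrected for (0.52, edgeR adjusted p = 0.0545). With Y-linked counts as a term, which rests on the P1 WT group, the call was lost too (0.76, edgeR adjusted p = 0.288). The transcript is 1434 bases long, among the short ones that tended to be higher in Pkd1 KO.

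Mmp23 was not called at P1 or P3 in either model. At P1 the Pkd1 WT libraries had 69.98, 71.4 and 72.2 CPM and the KO libraries 57.6, 58.6 and 60.0 CPM. The KO libraries were all lower, but the difference did not pass edgeR's test (log2 fold change -0.29, SE 0.08, unadjusted p = 0.00748, adjusted p = 1.00). At P1 in Pkd2 the groups overlapped, with means of 67.7 ± 3.93 CPM in WT and 78.3 ± 9.49 CPM in KO. From P1 to P7 the log2 fold change of Mmp23 shifted in Pkd1 by 1.05 ± 0.23 (SE, edgeR adjusted p = 0.0139). The corresponding value in Pkd2, 0.48 ± 0.16 (SE, edgeR adjusted p = 0.147), was not called, and it passed without Pkd2 P3 WT replicate 2 (edgeR adjusted p = 0.0495).

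Mmp14, the membrane-type MMP that cuts fibrillar collagen and activates Mmp2 (NM_008608; gene at 54431598 to 54442456 on the plus strand of chromosome 14), rose in Pkd2 KO kidneys at P7. The WT libraries had 283.5, 290.5 and 239.1 CPM and the KO libraries 374.0, 346.5 and 371.3 CPM, without overlap. The log2 fold change was 0.43 ± 0.09 (SE, edgeR adjusted p = 0.0167). The call was lost without Pkd2 P7 KO replicate 3 (0.42, adjusted p = 0.0603) and without WT replicate 1 (0.46, adjusted p = 0.0531). In Pkd1 kidneys at P7 the WT libraries had 290.6, 223.9 and 183.8 CPM and the KO libraries 267.7, 223.5 and 255.3 CPM. There the groups overlapped (log2 fold change 0.09, SE 0.17, edgeR adjusted p = 0.744). At P3 the 3 Pkd1 KO libraries, at 283.4 to 316.6 CPM, were above the 3 WT libraries, at 257.5 to 272.1 CPM, by 0.18 on the log2 scale, which did not pass (adjusted p = 0.263).

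Mmp2, the gelatinase that Mmp14 activates (NM_008610; gene at 92827290 to 92853421 on the plus strand of chromosome 8), passed in no comparison of KO with WT. In Pkd2 at P7 the WT libraries had 345.0, 374.9 and 374.8 CPM and the KO libraries 398.5, 383.2 and 392.8 CPM. In Pkd1 at P7 the WT libraries had 370.3, 380.1 and 348.6 CPM and the KO libraries 291.9, 334.6 and 348.0 CPM. The groups did not overlap in either model, with KO above WT in Pkd2 and below it in Pkd1. The log2 fold changes were 0.11 ± 0.06 (SE, edgeR adjusted p = 0.255) in Pkd2 and -0.18 ± 0.11 (SE, edgeR adjusted p = 0.285) in Pkd1, and the difference between them of -0.27 did not pass edgeR's interaction test (adjusted p = 0.253).

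Mmp9, the gelatinase abundant in neutrophils and macrophages (NM_013599; gene at 164940326 to 164955850 on the plus strand of chromosome 2), was low, with 8 to 117 counts in a library and a median of 1.97 CPM. The highest library, Pkd2 P3 WT replicate 2, had 8.85 CPM, and the others of its group had 1.47 and 2.07 CPM. KO and WT ranges overlapped in all comparisons except Pkd2 at P1, with 2.97 to 3.45 CPM in WT and 3.55 to 4.73 CPM in KO. None passed the test, and standard errors of the log2 fold changes were between 0.23 and 0.74.

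Mmp7, or matrilysin, is secreted by epithelial cells and is made by injured tubules. It had 9 counts over the 36 libraries. Pkd2 P1 KO replicate 1 held 5 of them and 4 further libraries held 1 each. A count of 0 in a library allows up to 3 counts, so that no difference was detectable at this depth. An exon of Mmp7 overlaps an antisense transcript, AV064505, and although HTSeq at its defaults counts by strand, whether the library kit marked strand is not given in the sources used here.

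Timp2 (NM_011594; gene at 118301061 to 118355411 on the minus strand of chromosome 11) both inhibits MMPs and bridges Mmp14 to the Mmp2 precursor. In Pkd2 kidneys at P7 the WT libraries had 347.4, 362.4 and 350.8 CPM and the KO libraries 433.8, 440.9 and 475.7 CPM. The KO libraries were also above every other library of the Pkd2 model, whose highest level was 409.4 CPM. The log2 fold change was 0.35 ± 0.06 (SE, edgeR adjusted p = 0.00918), or 1.28-fold. The call failed in 1 of 6 refits without 1 library, that without Pkd2 P7 WT replicate 1 (0.34, adjusted p = 0.0510). In Pkd1 kidneys at P7 the WT libraries had 362.3, 345.2 and 383.7 CPM and the KO libraries 337.1, 343.6 and 456.7 CPM. KO replicate 3 stood above all WT libraries there and the other two below them (log2 fold change 0.05, SE 0.14, adjusted p = 0.814). The difference between the models of -0.28 did not pass edgeR's interaction test (adjusted p = 0.355).

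Timp3 is the TIMP that binds to the matrix (NM_011595; gene at 86300412 to 86349505 on the plus strand of chromosome 10, overlapping an exon of Syn3 on the opposite strand). In Pkd1 at P7 the WT libraries had 822.1, 1082 and 747.0 CPM and the KO libraries 733.0, 589.8 and 767.4 CPM. The groups overlapped, with a log2 fold change of -0.35 ± 0.17 (SE). This change was not called by the fit of these 6 libraries (edgeR adjusted p = 0.180). It was called by the fit of all 18 Pkd1 libraries (edgeR adjusted p = 0.0414). The latter fit called 3882 of 12527 transcripts, against 1721 by the former. In Pkd2 at P7 the means were 995.9 ± 37.3 CPM in WT and 1011 ± 92.1 CPM in KO (log2 fold change 0.03, SE 0.08, adjusted p = 0.862). Timp1, the inducible TIMP of injured tissue (gene at 20870166 to 20874737 on the plus strand of chromosome X), was listed at 0 in all 36 libraries for each of its 3 transcripts. Gapdh, an everyday gene with 2 transcripts in the table that was looked up after the data had been seen, had 0 to 5 counts per library. Among genes with 3 transcripts in the table, as Timp1 has, 20.2% were at 0 in every library and 58.7% had at most 108 counts in all, against 15.3% and 30.1% of genes with 1 transcript. A loss in counting and a lack of expression of Timp1 cannot be told apart.

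Adamts1, which cuts aggrecan and versican (NM_009621; gene at 85793827 to 85803113 on the minus strand of chromosome 16), passed in no comparison of KO with WT. In Pkd1 at P7 the WT libraries had 637.6, 580.9 and 400.0 CPM and the KO libraries 370.3, 531.4 and 432.2 CPM. In Pkd2 at P7 the WT libraries had 619.7, 612.9 and 455.9 CPM and the KO libraries 716.7, 649.1 and 580.0 CPM. The groups overlapped in both models, with log2 fold changes of -0.28 ± 0.20 (SE, edgeR adjusted p = 0.354) and 0.21 ± 0.13 (SE, edgeR adjusted p = 0.345).

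**Figure D2:**
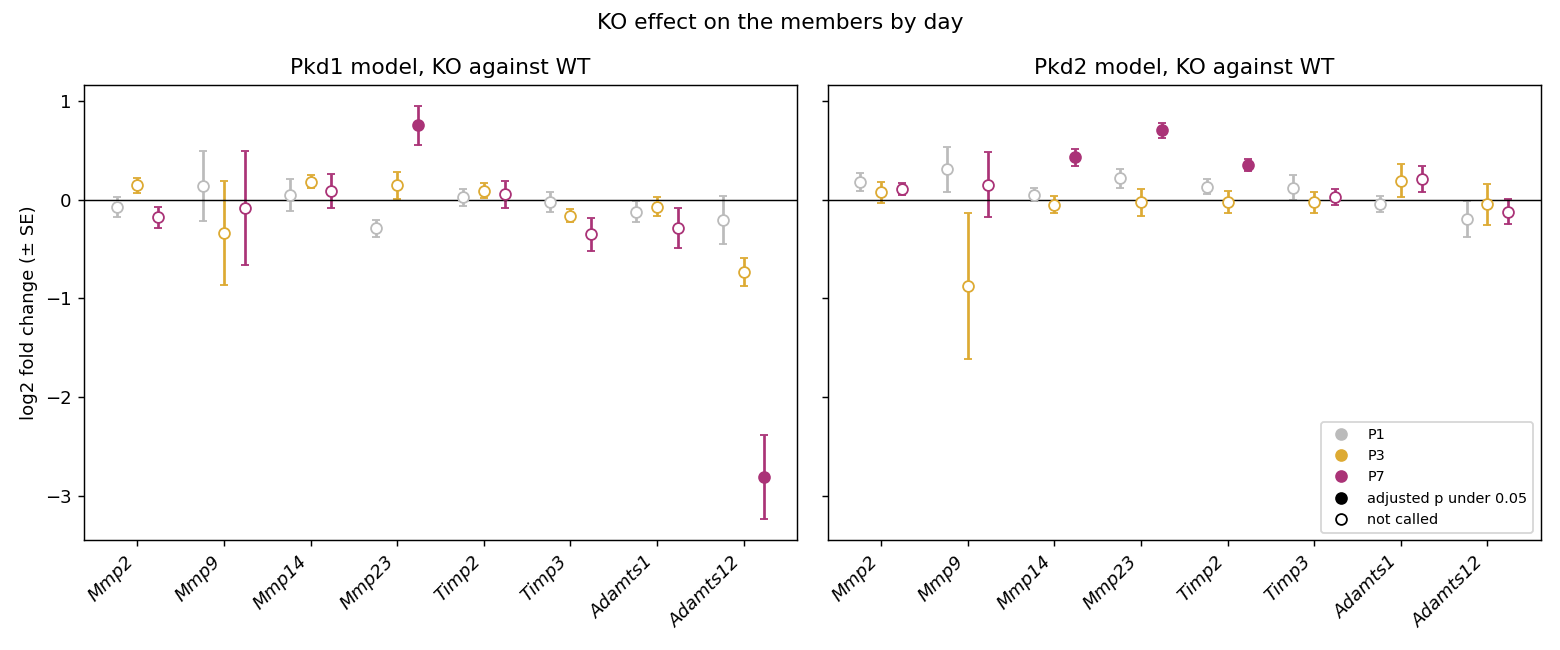
Log2 fold change of KO against WT for the 8 tested genes at each day, with bars of 1 standard error either way, in the Pkd1 model on the left and the Pkd2 model on the right. Filled points have an adjusted p under 0.05, and all 5 of them are at P7, where Adamts12 in Pkd1 is at -2.81 and the other 4 lie between 0.35 and 0.75.

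Counted over the comparisons, 2 of the 8 tested genes were called in Pkd1 KO at P7, where 13.7% of all 12527 transcripts were called. Mmp23 was 1 of the 6.2% of transcripts called higher and Adamts12 1 of the 7.54% called lower. In Pkd2 KO at P7, 3 of 8 were called, all higher, where 13.9% of 12633 transcripts were called and 7.82% were called higher. Groups did not overlap for 3 and 4 of the 8 genes at P7, against 38.8% and 35.4% of all transcripts in Pkd1 and Pkd2. At P1 they did not overlap for 1 and 1 of the 8 (5.81% and 11.4% of all), and at P3 for 3 and 0 (21.0% and 9.78%). The median log2 fold change of the 8 at P7 was -0.13 in Pkd1 and 0.18 in Pkd2, and that of all transcripts -0.01 and 0.00. A change of at least 2-fold besides the adjusted p was met at P7 by Adamts12 in Pkd1 alone, where 5.97% of transcripts in Pkd1 and 2.65% in Pkd2 met it. At P1 and P3, 0 of 8 were called in either model by edgeR's quasi-likelihood test. All transcripts were called at 0.0% at P1 in both models and at P3 in Pkd2, and at 0.00798% at P3 in Pkd1. An unadjusted p under 0.05 was found for 1 of the 8 in Pkd1 at P1 (1.29% of transcripts), for 3 at P3 (14.1%), and for 0 in Pkd2 at P1 (5.6%) and at P3 (4.46%). DESeq2 and edgeR's exact test called 1 in these comparisons, Adamts12 in Pkd1 at P3, where they called 1.98% and 1.45% of transcripts. For the change of the KO effect from P1 to P7, 2 of 8 were called in Pkd1 (7.75% of transcripts) and 0 in Pkd2 (1.3%). In the latter 2 had an unadjusted p under 0.05 (15.5% of transcripts) and DESeq2 called 1, Mmp14 (3.89%). For the difference between the models at P7, 0 of 8 were called (0.0% of transcripts), with 2 at an unadjusted p under 0.05 (17.3%) and 1 called by DESeq2 (3.29%).

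**Figure D3:**
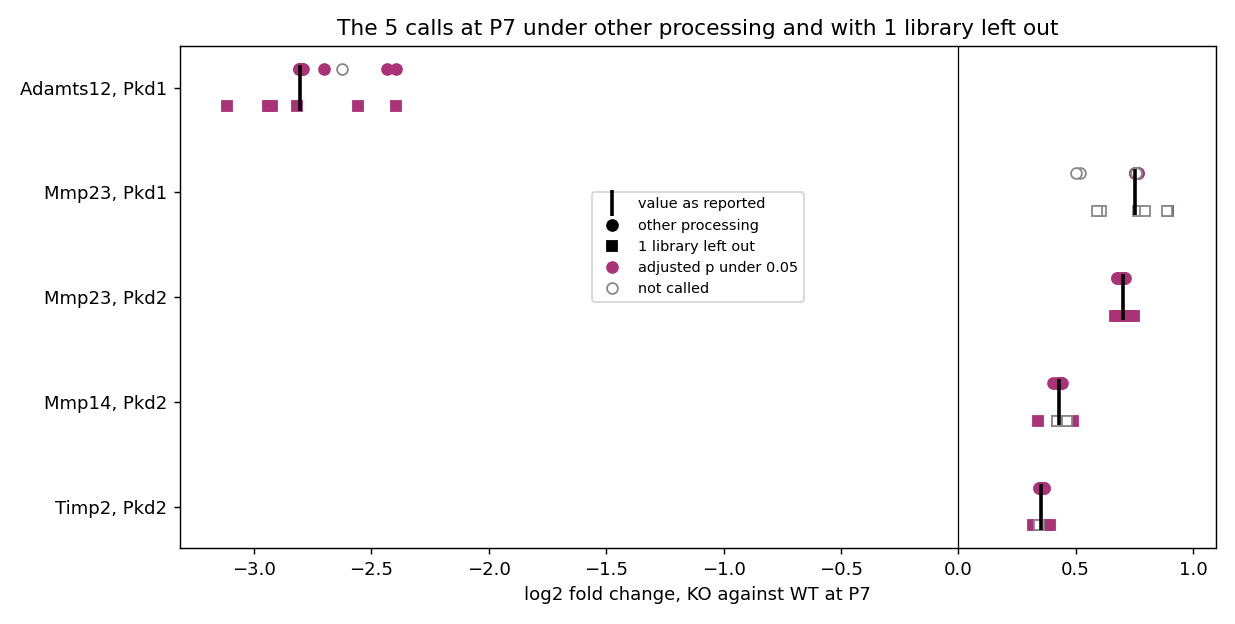
The 5 calls at P7 recomputed, as the log2 fold change of KO against WT. Black bars mark the value reported, circles other processing of the same libraries and squares fits with 1 library left out, filled where the adjusted p was under 0.05. Adamts12 stays between -3.11 and -2.39 and open symbols are most frequent for Mmp23 in Pkd1.

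Markers of other cells moved with genotype at P7. The summed level of 5 smooth muscle and myofibroblast markers (Acta2, Myh11, Tagln, Cnn1 and Des) was 1289 to 1410 CPM in Pkd1 WT and 3940 to 4165 CPM in Pkd1 KO kidneys. In Pkd2 it was 1155 to 1277 CPM in WT and 4010 to 4495 CPM in KO, and 4 of 4 tested markers of this list rose in both models. All 5 proximal tubule markers fell in both models. The 8 fibroblast markers summed to 7069 to 9635 CPM in Pkd1 WT and 7093 to 8886 CPM in KO, and to 7900 to 8173 CPM in Pkd2 WT and 8847 to 11220 CPM in KO, with Pdgfrb at or near 0 throughout. Of the 5 tested fibroblast markers, 1 fell in Pkd1, and 2 rose and 2 fell in Pkd2. The 6 macrophage and leukocyte markers, of which Ptprc and Itgam were at or near 0, summed to 143.0 to 235.6 CPM in WT and 198.8 to 250.5 CPM in KO for Pkd1, and to 160.9 to 199.3 CPM and 235.3 to 326.2 CPM for Pkd2. Of the 4 tested macrophage markers 0 were called in Pkd1 and 2 were called higher in Pkd2. Of 6 neutrophil markers 5 were in the table, with S100a9 at 3 counts or fewer, and they summed to 0.952 to 3.34 CPM in Pkd1 WT and 5.55 to 18.5 CPM in Pkd1 KO kidneys, and to at most 3.73 CPM in Pkd2. None of the 2 tested in Pkd1 and the 3 tested in Pkd2 was called. The 6 collecting duct markers summed to 730.9 to 1073 CPM in WT and 477.5 to 629.7 CPM in KO in Pkd1, where 2 rose and 3 fell of 5 tested, and to 742.4 to 1294 CPM and 480.0 to 580.4 CPM in Pkd2, where 2 of 5 fell. In Pkd1 and Pkd2, 0 and 1 of 2 tested endothelial markers fell (Pecam1, Tek and Emcn were too low), as did 1 and 0 of 4 podocyte markers and 1 and 0 of the 1 tested marker of the loop of Henle (Umod was too low). The part of these cell types in the changes of Mmp23, Mmp14, Timp2 and Adamts12 was not tested.

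In WT kidneys from P1 to P7, Adamts1 and Timp3 rose in both models. Adamts1 went from 308.5, 270.0 and 332.1 CPM at P1 to 637.6, 580.9 and 400.0 CPM at P7 in Pkd1 WT kidneys. In Pkd2 WT kidneys it went from 359.1, 311.2 and 298.3 CPM to 619.7, 612.9 and 455.9 CPM. The lowest P7 library was above the highest P1 library in each model. The log2 fold changes were 0.83 ± 0.16 (SE, edgeR adjusted p = 0.00697) and 0.80 ± 0.18 (SE, edgeR adjusted p = 0.0167), and P3 lay near P1, at 344.2 ± 22.7 CPM and 294.2 ± 71.1 CPM.

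Timp3 went from 640.0, 655.5 and 548.4 CPM at P1 to 822.1, 1082 and 747.0 CPM at P7 in Pkd1 WT kidneys, and from 758.1, 686.6 and 656.9 CPM to 986.1, 964.4 and 1037 CPM in Pkd2 WT kidneys. Again no P7 library overlapped the P1 range of its model. The log2 fold changes were 0.52 ± 0.14 (SE, edgeR adjusted p = 0.0284) and 0.51 ± 0.10 (SE, edgeR adjusted p = 0.00804). Leaving out 1 of 9 libraries kept the call of Adamts1 in 9 of 9 fits in Pkd1 and 5 of 9 in Pkd2, and that of Timp3 in 4 of 9 and 9 of 9. The Adamts1 call in Pkd2 was lost without P1 WT replicate 2 or 3 or P7 WT replicate 1 or 2, and the Timp3 call in Pkd1 without any of the P1 WT libraries or P7 WT replicate 1 or 2. The other 6 tested genes were not called, so that 2 of 8 changed with age in each model, both higher. Of all transcripts 17.9% changed in Pkd1 and 19.2% in Pkd2, with 8.86% and 9.02% higher, and 6.54% and 4.73% changed by at least 2-fold, which neither gene reached. Groups did not overlap for 3 and 5 of the 8, against 35.1% and 44.5% of transcripts. Mmp9 had log2 fold changes of -1.20 ± 0.57 (SE, edgeR adjusted p = 0.172) and -0.89 ± 0.62 (SE, edgeR adjusted p = 0.349). Mmp9 was called lower without Pkd1 P7 WT replicate 3 (-2.02, edgeR adjusted p = 0.0374) and without Pkd2 P3 WT replicate 2 (-0.90, edgeR adjusted p = 0.0425), and in none of the other refits without 1 library. Mmp2 had 0.30 (adjusted p = 0.0599) and 0.21 (adjusted p = 0.121), and its P7 libraries were all above those at P1 in both models. In Pkd1, Mmp2 was called by DESeq2 (0.30, adjusted p = 0.0235) and with the replicate block and the correction for length and GC content together (0.24, edgeR adjusted p = 0.0390). The presence of Y-linked counts also differed between these WT groups, with 2 of 3 libraries at P1 and 0 of 3 at P7 in Pkd1, and 1 of 3 and 2 of 3 in Pkd2.

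The 4 lists of related genes held 52 further genes, of which 32 were tested in Pkd1 and 34 in Pkd2. At P7, 3 rose and 4 fell in Pkd1 KO kidneys (21.9% of those tested, against 13.7% of all transcripts), and 6 rose and 4 fell in Pkd2 KO kidneys (29.4% against 13.9%). The median log2 fold changes over the lists were -0.15 and -0.01. Of 31 genes tested in both models, 3 rose in both, 3 fell in both and none was called in opposite directions. The matching share over all 12343 transcripts tested in both models was not counted, so these counts show nothing particular to the lists.

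Among 15 other MMPs, Mmp16, a membrane-type MMP, fell in both models. Its level went from 11.4 ± 0.408 CPM in WT to 6.85 ± 0.810 CPM in KO in Pkd1 (log2 fold change -0.74, adjusted p = 0.0469) and from 12.3 ± 0.478 to 6.90 ± 0.692 CPM in Pkd2 (-0.83, adjusted p = 0.0107). In Pkd1, 1 of 7 tested genes of this list was called and in Pkd2 2 of 8, the other being Mmp17, which rose in Pkd2 (0.77, adjusted p = 0.00187). The Mmp16 call in Pkd1 held in 1 of 6 fits that left out 1 library.

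Of 17 other ADAMTS genes, 14 were tested, and 5 were called in Pkd1 (3 higher, 2 lower) and 6 in Pkd2 (4 higher, 2 lower). Adamts2, which trims the amino ends of fibrillar procollagens, rose from 50.3 ± 6.08 to 76.2 ± 4.73 CPM in Pkd1 (0.59, adjusted p = 0.0224) and from 41.7 ± 3.30 to 87.4 ± 13.8 CPM in Pkd2 (1.07, adjusted p = 0.00205). The aggrecanase Adamts5 rose by 0.45 (adjusted p = 0.0426) and 0.33 (adjusted p = 0.0161) on the log2 scale. Adamts20 rose from 4.76 ± 1.74 to 15.8 ± 5.85 CPM in Pkd1 (1.73, adjusted p = 0.0234) and from 3.97 ± 0.654 to 10.7 ± 1.03 CPM in Pkd2 (1.43, adjusted p = 0.00349). Adamts15 fell in both models (-0.86, adjusted p = 0.0104 and -0.55, edgeR adjusted p = 0.0201).

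Among the called genes of these lists, the largest fall was that of Adamts17. It went from 113.9 ± 46.5 to 42.2 ± 4.14 CPM in Pkd1 (-1.44, edgeR adjusted p = 0.0173) and from 126.6 ± 19.9 to 59.3 ± 11 CPM in Pkd2 (-1.09, edgeR adjusted p = 0.00441). Adamts6 rose in Pkd2 (0.64, adjusted p = 0.0452), a call that held in 1 of 6 refits without 1 library. Leaving out 1 library kept the Pkd1 calls of Adamts2, Adamts5, Adamts20, Adamts15 and Adamts17 in 2, 1, 3, 5 and 3 of 6 fits. In Pkd2 the counts were 6, 3, 6, 2 and 6. Some ADAMTS genes also rose with age in WT kidneys, with 7 of 14 called higher in Pkd1 and 4 of 14 in Pkd2, among them Adamts5, Adamts15 and Adamts17 in both, where 8.86% and 9.02% of all transcripts were higher. Adamts9 was called lower in Pkd2 (-0.29, edgeR adjusted p = 0.0413).

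Of 9 ADAM genes, which are membrane-bound sheddases, 3 were tested and 1 was called, Adam12, which fell in Pkd1 (-0.90, edgeR adjusted p = 0.0115). Among 11 inhibitors and regulators of proteolysis, 2 of the 9 tested in Pkd2 were called, and the smallest adjusted p of the 8 tested in Pkd1 was 0.0579 for Plau (edgeR's quasi-likelihood test). A2m, a broad protease inhibitor, was called higher in Pkd2, with 19, 11 and 11 counts in KO and 2, 0 and 0 in WT, too few for a fold change. Serpinf2, which inhibits plasmin, fell in Pkd2 (-0.84, adjusted p = 0.0276), which held in 1 of 6 refits without 1 library (adjusted p up to 0.103). Plau, Plaur and Plat were not called in either model, and Reck, a membrane-anchored inhibitor of MMPs, was not called (-0.64, adjusted p = 0.0887 in Pkd1 and -0.15, adjusted p = 0.222 in Pkd2). Timp4 and Furin had too few counts to be tested. For the untested genes of these lists, as for Timp1, a loss in counting and a lack of expression cannot be told apart. With Y-linked counts as a term none of the calls of these lists in Pkd1 held, in a fit where 6 of 12527 transcripts passed. The log2 fold changes there were -0.82 for Adamts15, 0.81 for Adamts2, 1.33 for Adamts20, -1.09 for Adamts17, -0.47 for Mmp16, -0.39 for Adam12 and 0.06 for Adamts5. As the term rests on the P1 WT group alone, these values cannot separate sex from genotype at P7. With the replicate block the Pkd1 calls of Mmp16, Adamts2, Adamts5 and Adamts20 did not hold. The block together with the correction for length and GC content ended those of Mmp16, Adamts5 and Adamts20. The Mmp16 call in Pkd1 was also lost with that correction alone and without the low-count filter. In Pkd2, of the other processing of the same libraries, the block ended the call of Adamts6 and DESeq2 that of A2m.

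**Figure D4:**
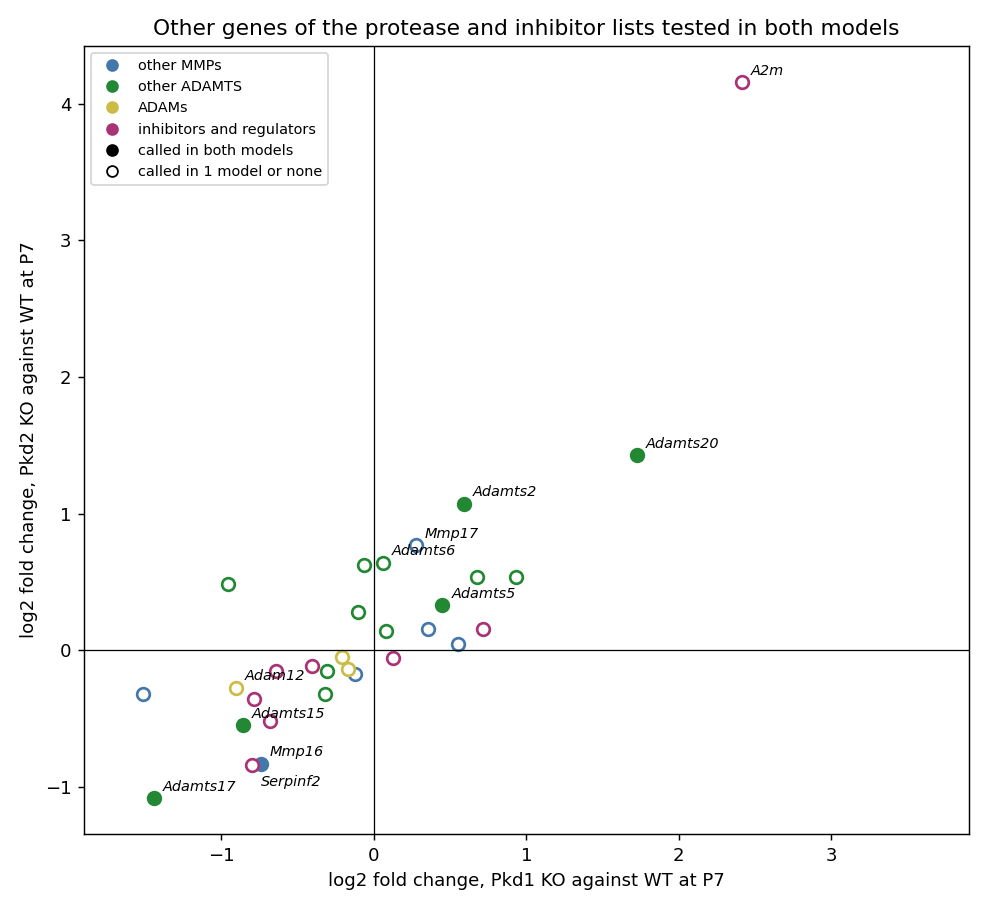
Log2 fold change of KO against WT at P7 in Pkd1 (horizontal axis) and Pkd2 (vertical axis) for the 31 further genes tested in both models, coloured by list and filled where called in both. Names mark genes called in at least 1 model, with Adamts20 at 1.73 and 1.43 and Adamts17 at -1.44 and -1.09. The fitted value of A2m rests on WT counts of at most 3 and is no measure of its size.

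Pearson's r over the 36 libraries is a description here, as libraries share model, genotype, day and depth. It ranked the genes whose log2 CPM followed each member most closely. For Adamts12 they were Gpam (0.93), Strn (0.93) and Pcgf3 (0.91). For Mmp23 they were Stx1a, Csdc2 and Numbl, with r between 0.87 and 0.88. Timp3 was followed by Tmem30a (0.92), Nid1, a basement membrane protein (0.91), and Fermt2 (0.90). Adamts1 was followed by Pkp2, Sfrp1 and Kcnf1 (0.87 to 0.89), and Mmp2 by Colec12 (0.86), Tnks1bp1 (0.80) and Col16a1 (0.77). The values were lower for Mmp14, with Lrp1, Myadm and Stx12 (0.77 to 0.81), for Timp2, with Kdelr3, Fkbp9 and Srpx (0.75 to 0.79), and for Mmp9, with Casq1, Eid1 and Myzap (0.72 to 0.78). Among the members themselves, r was 0.49 for Mmp2 with Mmp14, 0.48 for Mmp2 with Timp2, 0.34 for Mmp14 with Timp2, 0.70 for Timp3 with Adamts1 and -0.75 for Mmp23 with Adamts12. All r of Adamts12 include the Pkd1 KO libraries at P7, where it had 1.64 to 3.14 CPM, against 9.23 to 27.3 CPM elsewhere. Mmp23 had 90.5 to 131.0 CPM in those libraries and at most 98.5 CPM in the others. The r without that group was not computed.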

How the data were processed

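The authors isolated total RNA with TRIzol, sequenced it on a HiSeq2000, mapped the reads to mm10 with TopHat 2.1.0 and counted reads per RefSeq transcript with HTSeq at its defaults. The deposited values are raw read counts per RefSeq transcript, without the filter and TMM normalization of their methods. The labels also name CASAVA 1.8.2. HTSeq counts by strand at its defaults; whether the library kit marked strand is not given in the sources used here, and reads are lost where it did not.

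Symbols came from the RefSeq table of GRCm38.p6, which paired 28978 of 29996 rows with one, with positions, and transcript lengths came from GENCODE transcripts of the same assembly matched by RefSeq identifier. The members were the 10 genes named above, with 4 lists of 52 related genes (1 more is not reported here), the 3 genes most alike each member and lists of cell type markers. Of the related genes, those called at P7 in both models or with the largest rise or fall in a model were to be named; Mmp17, Adamts6, Adam12, Serpinf2 and the uncalled genes were named after their values were seen. The members and lists were chosen with earlier results of these data known.

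For each model and day, KO and WT counts entered edgeR's quasi-likelihood test, with TMM factors from the 18 libraries of the model and Benjamini-Hochberg adjustment at 0.05 over all 12527 (Pkd1) or 12633 (Pkd2) transcripts tested. The age comparison used 9 WT libraries, the change of the KO effect 18 and the difference between models 12. A standard error is the log2 fold change over the square root of F. The labels do not say which mouse each library came from. In 4 groups Y-linked counts were present in some libraries and absent in others, so these hold more than 1 mouse; elsewhere the spread that p-values measure may be technical. The chi-square per transcript between the 36 replicate pairs was 5.15 to 64.0, so that this spread exceeded counting error. Same-numbered KO and WT libraries deviated together in every pair in Pkd1 at P1 only (r = 0.491, 0.343 and 0.678 across transcripts), where the replicate block changed no member's call. The alternatives were other factors, filters and tests, the replicate block, a correction for length and GC content (mgcv 1.9.3), summed transcripts, all 18 libraries in one fit, Y-linked counts as a term and leaving out each library. Scripts were tested on simulated data. R 4.3.3, edgeR 4.0.16, DESeq2 1.42.0, Python 3.11.15, pandas 2.3.3, numpy 2.4.6, scipy 1.17.1 and matplotlib 3.10.9 were used.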

Additional observations from a re-analysis of the deposited data

Results flagged for a closer look

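The KO effect differed between P1 and P7 in the Pkd1 model for 2 of the 8 tested genes, by edgeR's interaction test over 18 libraries. For Adamts12 it changed by -2.60 on the log2 scale (adjusted p = 0.00451), from -0.21 at P1 to -2.81 at P7. For Mmp23 it changed by 1.05 (adjusted p = 0.0139), from -0.29 to 0.75. Both stayed called in 18 of 18 fits that left out 1 library, with values from -2.91 to -2.19 for Adamts12 and from 0.88 to 1.19 for Mmp23. With Y-linked counts as a term, a setting added after the data had been seen, the values were -2.30 and 1.05, and neither was called (adjusted p = 0.801 and 0.825), nor was any transcript. The term rests on the P1 WT group alone, the only Pkd1 group with libraries of both kinds. At P1 Y-linked counts were present in 2 of 3 Pkd1 WT and 0 of 3 KO libraries and at P7 in 0 of 3 WT and 3 of 3 KO libraries, so sex and genotype move together in this contrast and cannot be told apart.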

How the results depend on the processing

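No value of a tested gene changed sign with a call on either side, over the 1682 values recomputed. Signs changed for 76 values that were called in neither fit. The 2 calls in Pkd1 KO at P7 became 1 (Adamts12) with the replicate block, with the correction for length and GC content, with both together and with a minimum of 2-fold, and 0 with Y-linked counts as a term. With all 18 libraries in one fit they became 3, with Timp3 added. The 3 calls in Pkd2 KO at P7 and the 2 age calls of each model became 0 with a minimum of 2-fold. In Pkd1 at P3, DESeq2 and edgeR's exact test gave 1 in place of 0. DESeq2 also gave 1 in place of 0 for the change of the KO effect in Pkd2 (Mmp14) and for the difference between models (Adamts12). For age in Pkd1, DESeq2 gave 3 calls in place of 2, as did the replicate block with the correction, with Mmp2 added. The 2 calls for the change in Pkd1 became 0 with Y-linked counts as a term. Leaving out each library gave 1 to 2 calls in Pkd1 KO at P7, 1 to 3 in Pkd2 KO at P7, 1 to 3 in each age comparison, and 0 to 1 for the change in Pkd2 and the difference between models. Over all transcripts the calls in Pkd1 KO at P7 went from 1721 to between 224 (without WT replicate 1) and 3206 with 1 library left out. They went to 3882 with all 18 libraries in one fit, and to 6 with Y-linked counts as a term. The causes were not tested.

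With the replicate block, 712 transcripts were called in Pkd1 KO at P7 and 1485 in Pkd2. Same-numbered libraries did not deviate together at P7 (r of -0.303, -0.0142 and -0.114 in Pkd1), so the numbers give no pairing there. Under the block Adamts12 had -2.70 (adjusted p = 0.0294) and Mmp23 in Pkd1 0.76 (adjusted p = 0.0845).

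Depth limited Mmp7 and Mmp9. Mmp7 and Timp1 could not be fitted. Several sets of 3 libraries hold libraries with and without Y-linked counts. Levels of transcripts that share reads with others are uncertain.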
